A study of Mus musculus with 2 samples.

Results

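The genes described here are the integrin receptors, the laminin chains and the other proteins of the muscle basement membrane, together with the proteins that tie integrins to the cytoskeleton. They were chosen by their names on the array: every gene named as an integrin or laminin chain, the integrin-named binding proteins, and Nid1, Nid2, Hspg2, Fn1, Vtn, Ilk, Parva, Tln1, Tln2, Vcl, Pxn and Ptk2. This gave 55 genes of 24628 named genes, on 80 probes. Both arrays gave a signal well above background for 48 of them, called measured here, and 7 lacked one on at least 1 array.

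RNA came from the gastrocnemius, the large calf muscle, of wild-type male C57BL/6 mice aged 9 weeks. In the cast group the hindlimb had been held still and unloaded in plaster for 11 days, and control mice had no cast, as the labels give it. The labels say that samples were pooled with N = 6 for each group, read here as 1 pool of 6 mice per group. Each pool was hybridised to 1 one-colour Agilent whole-genome array, so no difference has a replicate check, a p-value or an SE, and the values describe these pools of whole muscle. All 10 markers of skeletal muscle fibres, such as Ckm, Acta1 and Ttn, were measured, with a median log2 ratio of -0.20, and only the fast myosin Myh2 was 2-fold or more apart (25789 on control, 9922 on cast). Satellite cell markers were measured for 4 of 6 genes, of which Cdh15 was higher (316 on control, 807 on cast). The others, Myod1, Pax7 and Chodl, differed little, with log2 ratios of 0.19, 0.079 and 0.067.

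Each muscle fibre is wrapped in a basement membrane, a sheet in which laminin trimers (one alpha, one beta and one gamma chain) and collagen IV form networks that nidogens and perlecan join. Integrins are receptors made of an alpha and a beta subunit that span the membrane. They bind laminin, collagen or fibronectin outside and, through talin, integrin-linked kinase and their partners, the actin cytoskeleton inside. In skeletal muscle the alpha7 subunit paired with beta1 is the main laminin-binding integrin, found at the ends of fibres, at the synapse and along the fibre membrane.

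Levels are given as scaled signal, the processed signal of a probe as a percentage of its array's 75th percentile, and differences as log2 of cast over control. The error after ± is a spot-level SD, taken from probes printed several times on each array. It covers single spots only; differences among mice and among hybridisations are outside it. Probes differ in brightness for reasons other than transcript number, so no gene's level is set against another's. A summed signal of a marker list mostly follows the brightest probes of that list.

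The arrays had 75th percentiles of 385 (control) and 486 (cast), and 60.6% and 56.8% of 39429 gene probes were well above background. No gene spot was saturated. Directions depend on the scaling: across all 14811 measured genes the median log2 ratio was -0.03 here, 0.32 with scaling on the 7 spike-in controls and 0.31 with no scaling.

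Of the 48 measured genes, the laminin receptor subunit Itga7 alone (1 gene) was higher in cast muscle by 1.5-fold or more, against 7.03% of all measured genes. At least 1.5-fold lower were 10 genes (background 8.17%): Itgb1bp2, Itgb1bp3, Nid1, Itgb7, Lamc3, Lamb1-1, Itgb3bp, Nid2, Itgb6 and Itga11. None was at least 2-fold higher (background 2.23%), and 2 were at least 2-fold lower (background 2.10%), the muscle beta1-binding proteins Itgb1bp2 and Itgb1bp3. The share of genes called lower was thus above that of the array as a whole, and the share called higher was below it. The median log2 ratio was -0.25 against -0.03 for all genes, and 14 genes lay above 0 and 34 below (29.2% above, against 47.1% of all genes). With spike-in scaling the split turned to 27 above and 21 below, while 80.8% of all genes then lay above 0. These shares of all genes (47.1% here, 80.8% with spike-in scaling) are the background for the splits given further on.

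**Figure D1:**
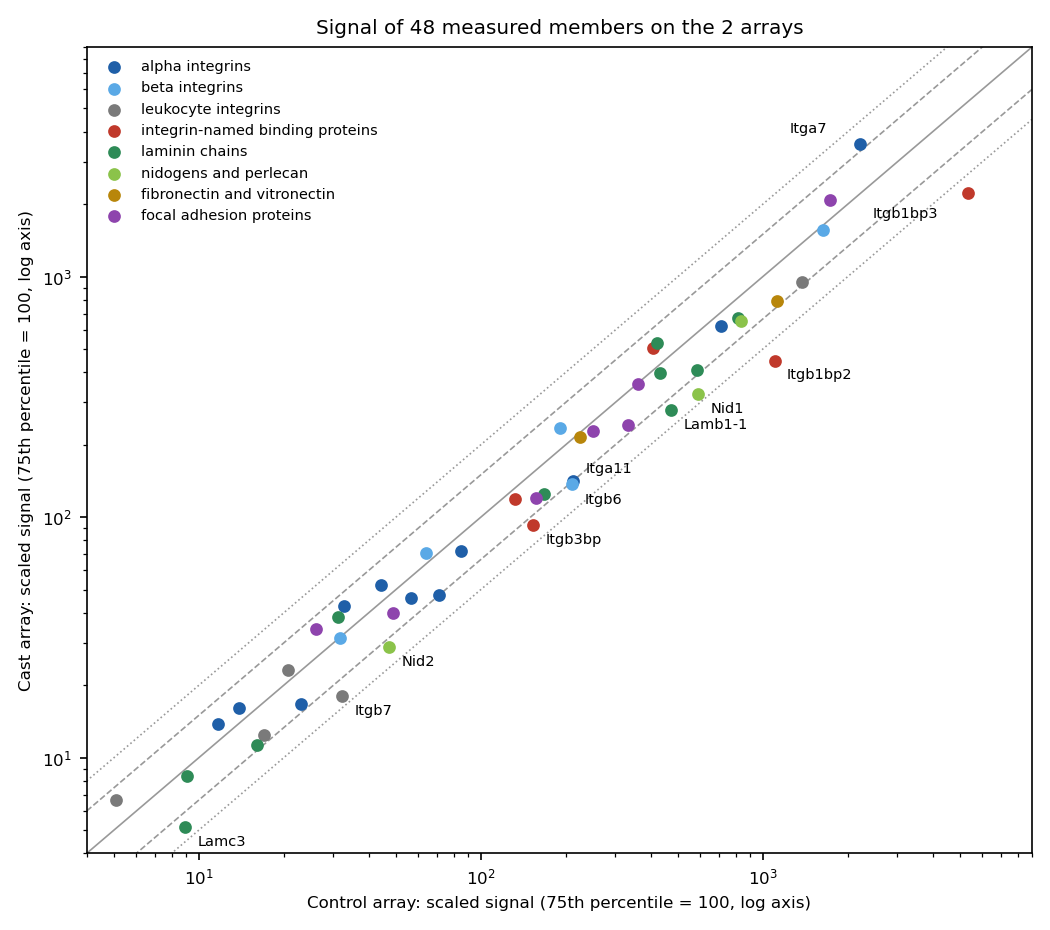
Scaled signal of the 48 measured genes on control (x axis) and on cast (y axis), both on log axes with the 75th percentile of each array at 100; each point is 1 gene, coloured by role. The solid line marks equal signal, dashed lines 1.5-fold and dotted lines 2-fold differences; Itga7 lies above the upper dashed line, and Itgb1bp2 and Itgb1bp3 lie below the lower dotted line.

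Among the laminin-binding receptor subunits, Itga7 stood apart from the others. Its probe, at chr10:128395274-128395333 on the plus strand (mm9), had a scaled signal of 2213 on control and 3568 on cast. That is 1.61-fold higher on cast (log2 ratio 0.69 ± 0.077), and the ratio lay between 0.60 and 1.04 over all settings tried. The other laminin-binding alpha subunits differed less. Itga6, a laminin-binding subunit that pairs with beta1 or beta4, gave 709.7 on control and 622 on cast (-0.19 ± 0.077), and its sign turned with spike-in scaling (0.16). Itga3, another laminin receptor subunit, had a log2 ratio of 0.21 ± 0.15 at a low signal.

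Itgb1, the beta subunit shared by most of these receptors, was read by 2 probes with signal on both arrays. The brighter gave 192 on control and 235 on cast, a log2 ratio of 0.29 ± 0.089, and the other gave 0.20. Both probes of the subunit were thus higher on the cast array, by less than 1.5-fold. Itgb5, which pairs with the alpha-v subunit to bind vitronectin, gave 1629 and 1565 (-0.058 ± 0.077), less than its spot-level SD from 0. Itgb4, the hemidesmosome subunit, had a log2 ratio of 0.16, and Itgb3, the partner of alpha-v and of the platelet alpha-IIb subunit, -0.018.

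Outside the leukocyte integrins, described further on, Itgb6 had the largest difference of the 5 measured beta subunits. With alpha-v it forms a receptor known from epithelia that activates latent TGF-beta. The brighter of its 2 probes gave 211 on control and 138 on cast, 1.53-fold lower (-0.62 ± 0.089), and the other gave -0.76. The 5 beta subunits outside the leukocyte group split 2 above and 3 below 0, which became 4 above and 1 below with median, spike-in or no scaling, and 3 above and 2 below with quantile or loess.

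The brightest measured probe of each of Itgb1, Itgb6, Itga1 and Itgb1bp2 is shown here. Each spans an intron on mm9, so its letters are those of the spliced transcript, and each has a reading frame without a stop codon. In all, 8 measured probes of the set span more than their length, among them that of Vtn, not shown. The probes shown give what the array reads of a receptor's inner tail, of a collagen receptor and of melusin. Capitals mark the codons of NPxY motifs, where talin and kindlins bind a beta subunit's tail, and the Itgb1 probe holds 2 such runs of 12 bases. The Itgb1 probe lies within chr8:131250081-131255976 (plus strand), that of Itgb6 within chr2:60438632-60443247 (minus), that of Itga1 within chr13:115756765-115758419 (minus) and that of Itgb1bp2 within chrX:98647915-98648214 (plus).
Itgb1: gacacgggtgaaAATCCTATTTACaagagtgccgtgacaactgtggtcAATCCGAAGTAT
Itgb6: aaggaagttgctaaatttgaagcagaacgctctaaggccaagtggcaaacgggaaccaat
Itga1: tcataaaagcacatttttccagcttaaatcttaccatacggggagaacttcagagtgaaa
Itgb1bp2: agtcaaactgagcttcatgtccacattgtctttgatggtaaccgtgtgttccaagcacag

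The collagen-binding alpha subunits went both ways. Itga11, a receptor subunit for fibrillar collagen known from fibroblasts, gave 212 on control and 141 on cast, 1.51-fold lower (-0.59 ± 0.089). Itga1, which binds collagen IV, lay just short of the 1.5-fold line at 1.49-fold lower (-0.58 ± 0.098), and its second probe gave only -0.16. These 2 genes, on either side of the threshold, cannot be told apart at this precision. Itga10, a collagen receptor subunit of cartilage, was higher on the cast array (0.39 ± 0.098). Its 2 probes share 54 bases, so their likeness is no independent check.

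Subunits that bind fibronectin, vitronectin and related ligands differed little. Itga5, the classic fibronectin receptor subunit, gave a dim 11.7 on control and 13.8 on cast (0.24 ± 0.15), and its ratio was 0.03 after another background correction (normexp). Itgav gave 56.4 and 46.1 (-0.29 ± 0.098), with -0.23 for its second probe. Itga9, which binds tenascin, had a log2 ratio of 0.24, Itga4, which binds VCAM-1 and fibronectin, -0.23, and Itga8, a receptor subunit for nephronectin, -0.46. Of the 11 measured alpha subunits outside the leukocyte group, 5 lay above 0 and 6 below, with a median of -0.19; with spike-in or no scaling 8 lay above and 3 below.

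**Figure D2:**
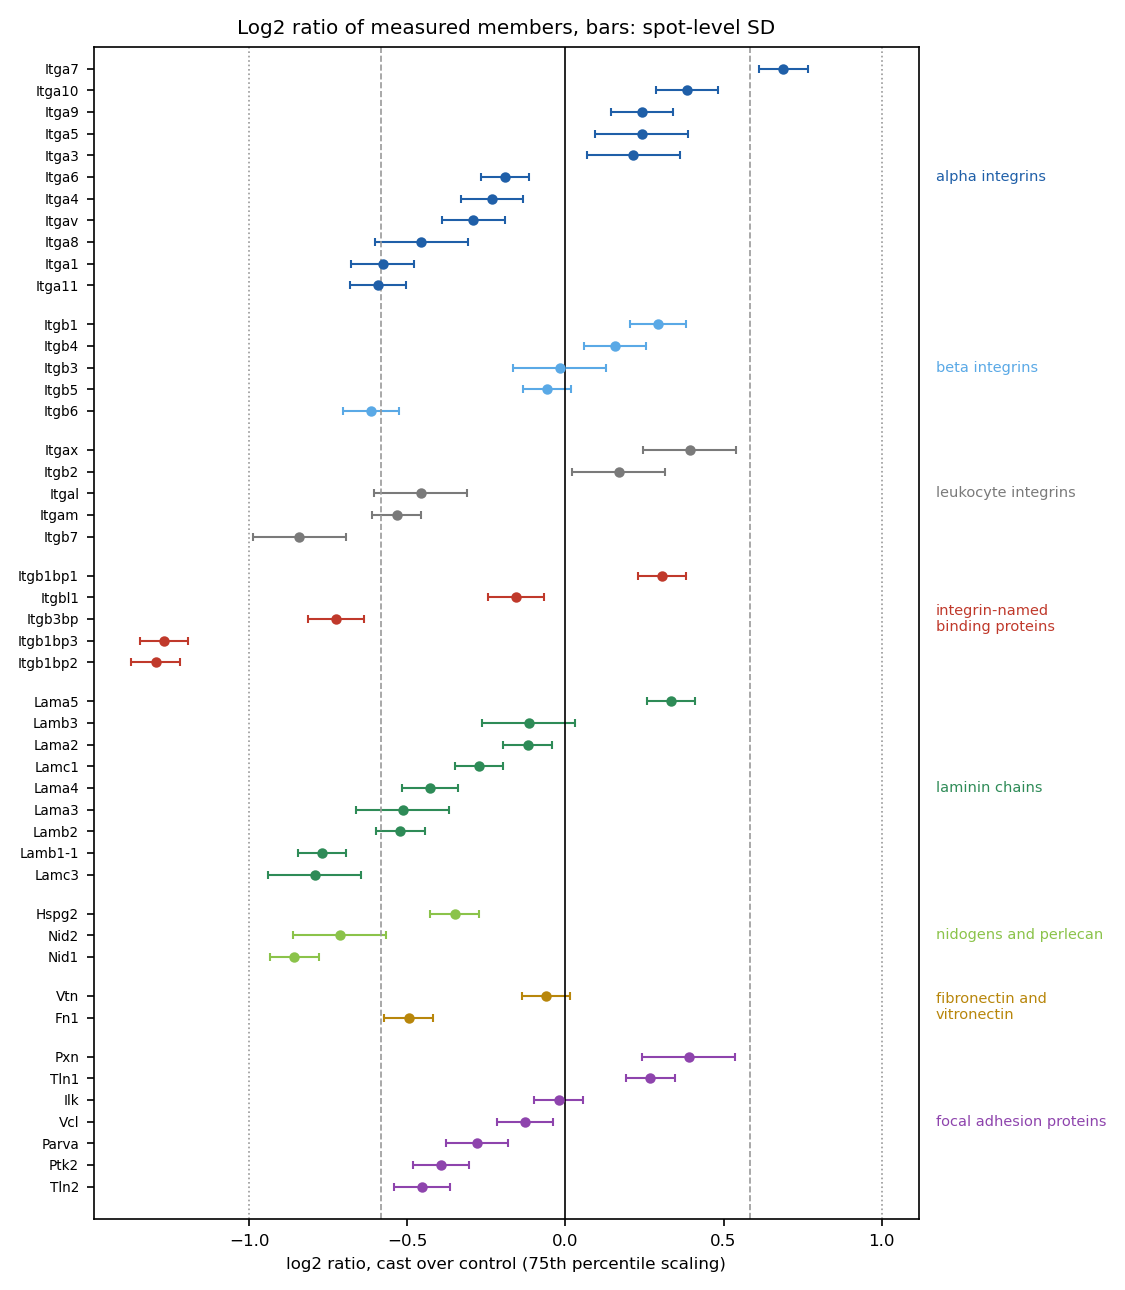
Log2 ratio of cast over control (x axis) for 47 of the 48 measured genes (y axis), grouped by role; points are the brightest probe and bars the spot-level SD. Dashed lines mark 1.5-fold and dotted lines 2-fold; in the group of nidogens and perlecan every point lies left of 0, while alpha integrins lie on both sides.

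Itgb1bp2 and Itgb1bp3 held the largest differences of the set. Itgb1bp2, or melusin, is a muscle-specific protein that binds the inner tail of beta1 and is known for its part in the heart's response to pressure. Its scaled signal was 1099.6 on control and 448 on cast, 2.46-fold lower (-1.30 ± 0.077). Itgb1bp3, now named Nmrk2, is a nicotinamide riboside kinase of muscle, also described as a beta1-binding protein, and is read at chr10:80662033-80662092 (mm9, minus strand). It gave 5346 on control and 2217 on cast, 2.41-fold lower (-1.27 ± 0.077). Both are single-probe genes. Over all settings tried, Itgb1bp2 ranged from -1.33 to -0.95 and Itgb1bp3 from -1.35 to -0.92.

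The other integrin-named binding proteins differ in what they do. Itgb3bp, a nuclear coregulator and centromere protein named for binding beta3, gave 154 on control and 92.8 on cast, 1.65-fold lower (-0.73 ± 0.089). Itgb1bp1, an inhibitor of integrin activation that binds the beta1 tail, had a log2 ratio of 0.31 by its brighter probe and -0.12 by the other, so its direction is not settled. Itgbl1, a secreted protein with integrin-like repeats, had -0.16.

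Laminin chains were mostly lower on the cast array: 8 of 10 measured chains lay below 0, with a median of -0.35. With spike-in scaling 5 lay below 0 and 5 above, while 80.8% of all genes then lay above 0. The chains of the muscle laminin differed unequally. Lama2, the alpha chain whose loss causes congenital muscular dystrophy, gave 433 on control and 399 on cast (-0.12 ± 0.077), and its second probe gave -0.09. Lamb1-1 (Lamb1), the beta chain of that trimer, gave 474 on control and 278 on cast, 1.71-fold lower (-0.77 ± 0.077). Lamc1, the gamma chain of most laminins, gave 814 and 674 (-0.27 ± 0.077). Of these 3 chains, only Lamb1-1 was past 1.5-fold.

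Chains of the laminins of vessels and the synapse also split. Lamb2, the beta chain concentrated at the neuromuscular junction, gave 585 on control and 408 on cast (-0.52 ± 0.077). Lama4, an alpha chain of vessel walls and nerve, gave 168 and 125 (-0.43 ± 0.089). Lama5, the other alpha chain of vessel walls and of the synapse, went the other way, with 421 on control and 530.3 on cast (0.33 ± 0.077), and stayed above 0 under every scaling. The 10 markers of endothelium stood at a summed signal of 3446 on control and 2796 on cast. Of these markers 8 lay below 0 and 2 above, with a median of -0.26 (0.09 with spike-in scaling, against 0.32 for all genes). Those above 0 were Pecam1 (0.055 ± 0.098) and Cldn5 (192 on control, 334 on cast, 0.80 ± 0.089), which had the largest difference of the list. The part of endothelial cells in these laminin values was not tested. In whole muscle, fewer cells of a type and less RNA per cell cannot be told apart.

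Lamc3, a gamma chain of few tissues, was near background and gave 8.91 on control and 5.15 on cast, 1.73-fold lower (-0.79 ± 0.15). After normexp background correction its log2 ratio was -0.35, short of 1.5-fold. Lamb3 and Lama3, chains known from epithelia, were dim as well, with log2 ratios of -0.12 and -0.51. Lama1, the alpha chain of the embryo, was not above background on either array.

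The proteins that join the laminin and collagen IV networks were lower on the cast array, all 3 of them, and stayed so under every scaling tried. Nid1 gave 589 on control and 325 on cast, 1.81-fold lower (-0.86 ± 0.077). Of its 3 probes, a dimmer one nearby gave -0.80 and another dim one, which lies farther upstream and spans an intron, gave -0.11. The mean of the probes was -0.59, at the 1.5-fold line. Nid2 gave 47.3 and 28.8, 1.64-fold lower (-0.71 ± 0.15). Hspg2, which encodes perlecan, gave 834 on control and 654 on cast (-0.35 ± 0.077), with -0.50 for its second probe, and was close to 0 with spike-in scaling (-0.0022).

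**Figure D3:**
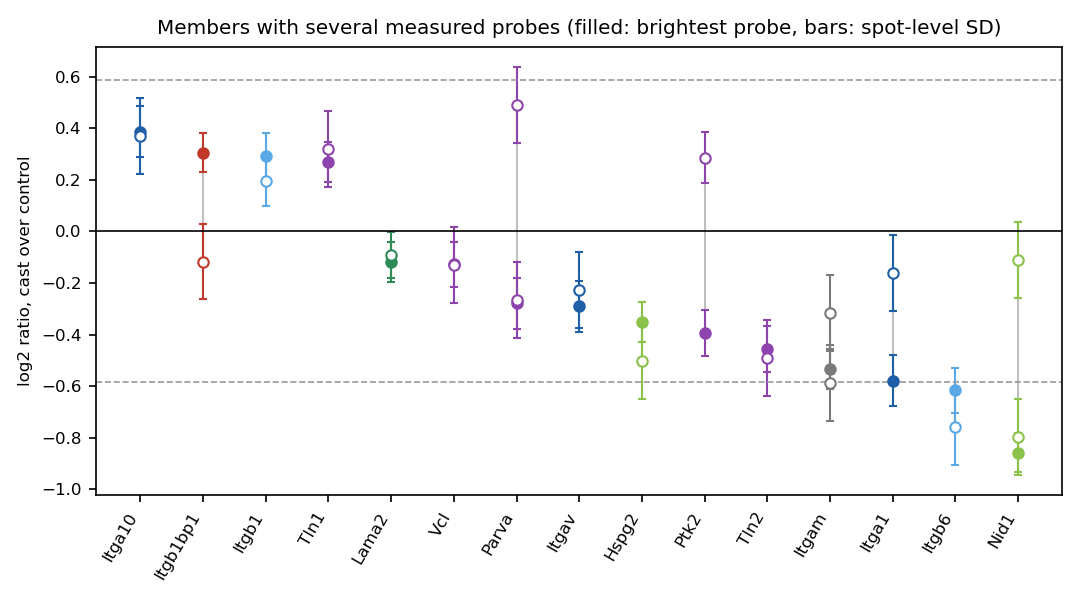
Log2 ratio of every probe (y axis) for the 15 genes with several probes well above background on both arrays; filled points are the brightest probe, open points the others, bars the spot-level SD, dashed lines 1.5-fold. In 12 genes all probes have 1 direction, and in Itgb1bp1, Parva and Ptk2 they lie on both sides of 0.

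Fn1, fibronectin, gave 1121 on control and 795 on cast, 1.41-fold lower (-0.50 ± 0.077). Vtn, vitronectin, a plasma protein bound by alpha-v integrins, was printed on 10 spots and gave 225 and 215 (-0.062 ± 0.076). That SD is of single spots, so it overstates the spot-level error of this mean over 10 spots.

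Markers of fibroblasts and most markers of tendon cells, which make much of the matrix of muscle, were lower on the cast array beside these genes. All 8 fibroblast markers were measured and all lay below 0, with a median of -0.74 and a summed signal of 24000.1 on control and 14347 on cast. The fall was uneven, and 5 of the 8 were at least 1.5-fold lower (8.17% of all genes). Their largest differences were those of the collagen I chains Col1a1 (2564 on control, 758 on cast) and Col1a2 (6851 and 2117). Short of 1.5-fold were Dcn (11175 on control, 9125 on cast, -0.29), Pi16 (-0.34) and Pdgfra (-0.069 ± 0.089), the last within its spot-level SD of 0. With spike-in scaling 5 of the 8 stayed below 0. Of the 5 tendon markers, 4 lay below 0 under every scaling tried, with a summed signal of 2177 on control and 1393 on cast. Those at least 2-fold lower were Tnmd (50.4 on control, 21.2 on cast), Comp (671 and 279) and Fmod (997 and 463). The marker above 0 was Scx, a transcription factor that defines tendon cells, with 448 on control and 623 on cast (0.48). The part of these cells in the laminin, nidogen and fibronectin values was not tested.

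Other genes of the basement membrane had a like balance. Of 35 on the array 30 were measured, with 9 above 0 and 21 below and a median of -0.31. None was at least 1.5-fold higher (7.03% of all genes) and 7 were lower (8.17% of all genes). With spike-in scaling 16 were above and 14 below, while 80.8% of all genes then lay above 0. The collagen IV chain Col4a5 gave 18.4 on control and 8.11 on cast, 2.27-fold lower (-1.18 ± 0.15). Col4a1, a chain of the collagen IV of nearly all basement membranes, gave 308 and 187 (-0.72 ± 0.087), and its partner Col4a2 gave 400.1 and 282 (-0.50 ± 0.077). Sparc, a collagen-binding matrix protein, had a log2 ratio of -0.86, and Egflam (pikachurin), a ligand of dystroglycan, -0.64. Dystroglycan itself (Dag1), the other main laminin receptor of the fibre, gave 1016 on control and 774 on cast (-0.39 ± 0.077), opposite to Itga7. Agrn, the synaptic organiser agrin, had 0.033.

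Of 26 other integrin ligands on the array, 17 were measured. Of these, 3 were at least 1.5-fold higher (7.03% of all genes) and 7 lower (8.17% of all genes). The median was -0.48, with 6 above 0 and 11 below (7 and 10 with spike-in scaling). Of all genes 47.1% lay above 0, and 80.8% with spike-in scaling. Beyond Col1a1 (-1.76) and Col1a2 (-1.69), which are also in the fibroblast list, the collagen VI chain Col6a2 gave 147 on control and 69.7 on cast (-1.07 ± 0.098). In the other direction, Ccn1, a matricellular ligand of alpha-v integrins, gave 276 and 718, 2.60-fold higher (1.38 ± 0.077).

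Focal adhesion proteins, which link integrin tails to actin, showed no difference of 1.5-fold among 7 measured genes. Since 7.03% of all measured genes were past that line upward and 8.17% downward, a count of 0 among 7 is near the background. Their median was -0.13, with 2 above 0 and 5 below, and with spike-in scaling 5 above and 2 below. Tln1, the talin that activates integrins, gave 1728 on control and 2081 on cast (0.27 ± 0.077), with 0.32 for its second probe. Tln2, the talin form prominent in muscle, gave 331 and 242 (-0.45 ± 0.089), with -0.49 for its second probe. The 2 talins thus lay on opposite sides of 0 by both probes each, and with spike-in scaling too (0.62 for Tln1 and -0.11 for Tln2).

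Ilk, the integrin-linked pseudokinase, gave 362 on control and 356 on cast (-0.021 ± 0.077), less than its spot-level SD. Vcl, vinculin, which binds talin and actin, gave 249.7 and 229 (-0.13 ± 0.089). Pxn, the adaptor paxillin, was dim and gave 26.1 and 34.2 (0.39 ± 0.15). All 3 lay within 1.5-fold under this scaling, and Pxn passed it with spike-in scaling (0.74).

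Parva, the actin-binding partner of Ilk, gave 48.6 on control and 40.1 on cast by its brightest probe (-0.28 ± 0.098), with -0.27 for a second probe and 0.49 for the other. Ptk2, focal adhesion kinase, gave 157 and 119.7 (-0.39 ± 0.089), while a probe for another accession gave 0.29. With the mean of all probes Parva came to -0.02 and Ptk2 to -0.05, and with the median of its probes Parva came to -0.27. Whether these probes read different transcript forms was not tested.

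**Figure D4:**
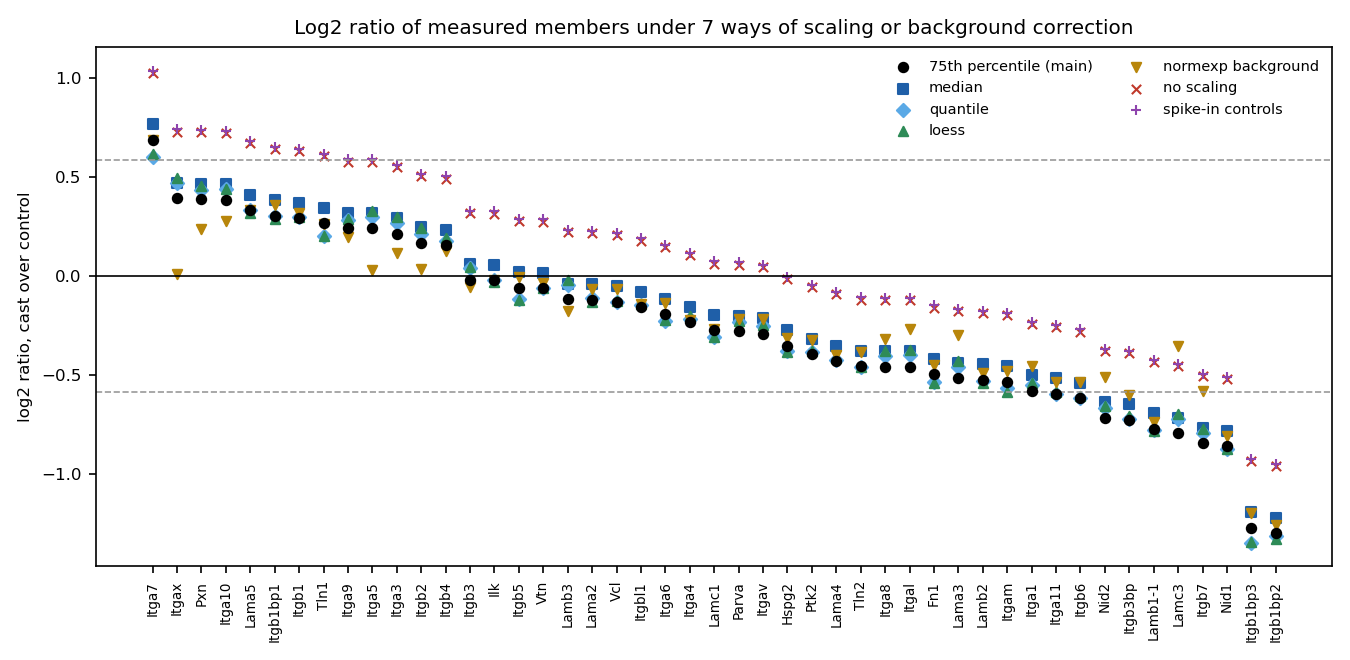
Log2 ratio of cast over control (y axis) for 47 of the 48 measured genes (x axis, ordered by the main value) under 7 ways of scaling or background correction, each with its own symbol; dashed lines mark 1.5-fold. No scaling and spike-in scaling shift all genes upward together, and Itga7, Itgb1bp2 and Itgb1bp3 stay past a dashed line under all 7.

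Other proteins of integrin adhesions were close to the array as a whole. Of 43 genes, 39 were measured, with 1 at least 1.5-fold higher (7.03% of all genes) and 3 lower (8.17% of all genes). The median was -0.10, with 15 above 0 and 24 below (31 and 8 with spike-in scaling). Nrap, which ties the ends of the myofibril to the membrane at the muscle-tendon junction, gave 6991 on control and 11271 on cast, 1.61-fold higher (0.69 ± 0.077). Its second probe gave 0.92. Those lower were Pdlim7 (-0.96 ± 0.077), a PDZ and LIM protein of the actin cytoskeleton, Vasp (-0.79 ± 0.089), an actin polymerisation factor, and Fermt2 (-0.64 ± 0.077), the kindlin that activates integrins in muscle. The second probe of Fermt2 gave -0.14, and the 3 probes of Pdlim7 lay between -0.96 and -0.51, the latter short of 1.5-fold.

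Integrins of white blood cells did not move as 1 group, while general leukocyte markers were higher. Itgb7, a subunit of lymphocyte homing receptors, gave 32.3 on control and 18.00 on cast, 1.79-fold lower (-0.84 ± 0.15), and -0.58 after normexp correction. Itgam, the CD11b subunit of macrophages and neutrophils, had a log2 ratio of -0.53 by its brightest probe (1379 on control, 953 on cast). Its 3 probes lay between -0.59 and -0.32, but the other 2 were far dimmer, with 18.2 and 11.7 on control. Itgal, the LFA-1 subunit, had -0.46. Itgax (CD11c) and Itgb2 (CD18), the partner of Itgam, Itgal and Itgax, had 0.39 and 0.17, and after normexp correction 0.01 and 0.04.

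All 6 pan-leukocyte markers were above 0 under every scaling tried, with a median of 0.44 and a summed signal of 330.4 on control and 433 on cast. Of 10 macrophage markers 7 were measured, 6 of them above 0, with a summed signal of 694 on control and 808 on cast. Aif1 had the largest difference (26.1 on control, 58.7 on cast). Csf1r, the brightest of them, hardly differed (472 on control, 476 on cast, 0.012 ± 0.077). Adgre1, which lay below 0, had a log2 ratio of -0.060 ± 0.15. The markers Cd68, Cd163 and Fcgr1 were not well above background on both arrays. Neutrophil markers were measured for 7 of 8 genes, 5 above 0 and 2 below, with a median of 0.25 and a summed signal of 120.4 on control and 298 on cast. S100a8 (10.02 on control, 46.4 on cast) and S100a9 (40.4 and 189) were at least 2-fold higher, and the rise of the sum lies in these. Ly6g and Elane had log2 ratios of -0.41 and -0.54. Lymphocyte markers were measured for 4 of 10 genes, with a median of -0.33 and a summed signal of 324 on control and 288 on cast. The part of these cells in the leukocyte integrin values was not tested.

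**Figure D5:**
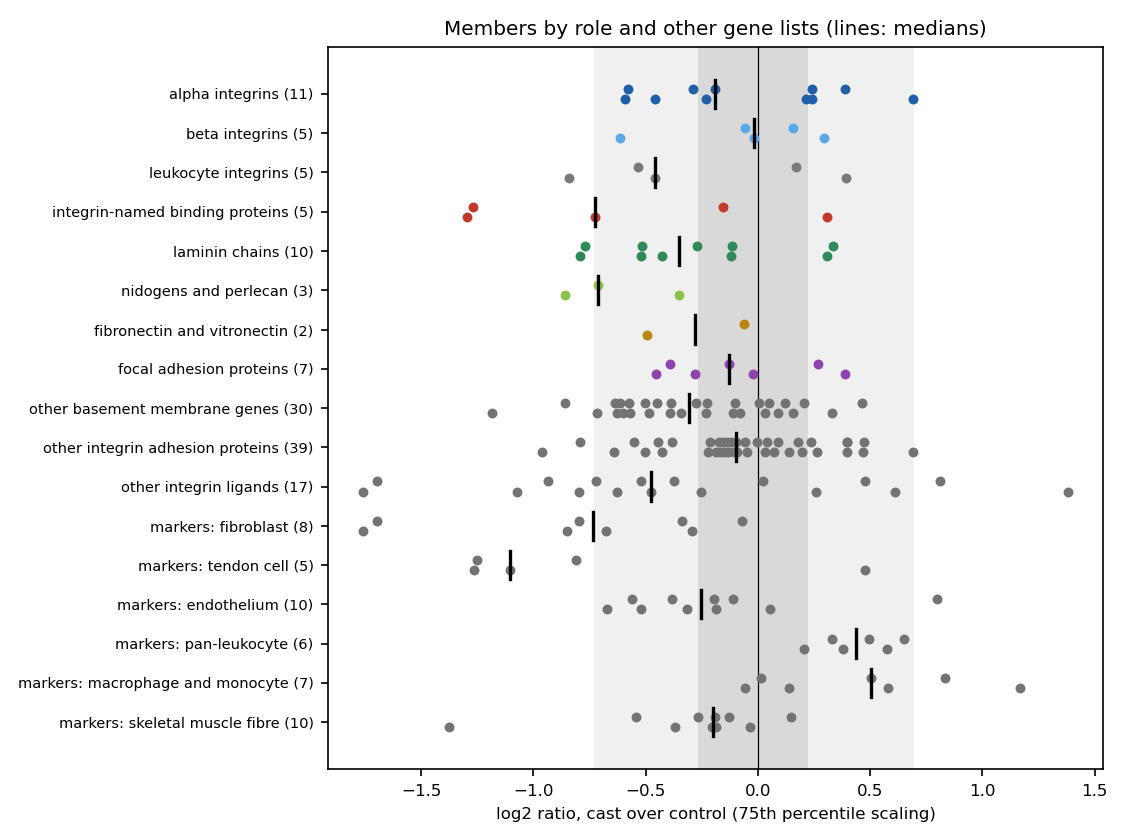
Log2 ratio of cast over control (x axis) for the measured genes of each role and of lists of other genes and cell type markers (y axis, with the number measured); points are genes and black lines medians. The darker band holds the middle of all genes, from the 25th to the 75th percentile (-0.27 to 0.23), and the lighter band reaches from the 5th to the 95th (-0.72 to 0.69); fibroblast and tendon markers and integrin-named binding proteins have the lowest medians, and pan-leukocyte and macrophage markers lie mostly right of 0.

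The remaining genes were at or near background. Itga2b, the platelet alpha-IIb subunit, had a signal well above background in control muscle only. Its scaled signal was 5.11 there and 4.08 on cast, at least 1.22-fold lower under the main scaling. This bound sets the control value against the lowest signal called well above background on the cast array. Before scaling the signals were alike, 19.7 on control and 19.8 on cast, so the bound rests on the scaling. The lowest unscaled signal called well above background was 13.1 on control and 20.3 on cast. The collagen receptor subunit Itga2, the TGF-beta-activating subunit Itgb8, the leukocyte subunits Itgad, Itgae and Itgb2l, and Lama1 were not well above background on either array. Of platelet markers 5 of 6 were measured, with a median of 0.05 and a summed signal of 412 on control and 469.6 on cast.

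Promoter sequences in the RefSeq table (GRCm38.p6, 250 bases before to 50 after each start) matched 34 of the 55 genes, with 38 promoters. A GC box (GGGCGG on either strand), the site of the Sp1 family, was in 18 of the 38 and in 35.7% of all 32851 promoters. The E-box CAGCTG was in 10 (16.3% of all), the MCAT element CATTCC in 6 (14.7%) and the AP-1 site TGANTCA in 3 (7.81%), each on either strand. A CArG box, the site of serum response factor, was in those of Itgb6, Lama2 and Vcl (1.63% of all) and a MEF2 site in that of Itga10 (1.86%). The SMAD element GTCTAGAC was in none (0.213% of all). These are matches of letters in a fixed window and say nothing about binding.

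Below are the 120 bases before the start of 4 basement membrane genes on GRCm38.p6, shown because 3 of them (Lamb1, Nid1 and Hspg2) were lower on the cast array and Lama5 was higher, under the main scaling. Capitals mark the GC box on either strand, found 2 times in Lamb1, 1 time in Nid1, 3 times in Hspg2 and 2 times in Lama5. They lie at chr12:31265173-31265292 (plus strand), chr13:13437482-13437601 (plus), chr4:137468683-137468802 (plus) and chr2:180225860-180225979 (minus). Among the 4 genes shown, the box is present in those that were lower and in the one that was higher. It is not in every lower basement membrane gene: the promoter of Lamb2 (log2 ratio -0.52), not shown, had 0 GC boxes.
Lamb1: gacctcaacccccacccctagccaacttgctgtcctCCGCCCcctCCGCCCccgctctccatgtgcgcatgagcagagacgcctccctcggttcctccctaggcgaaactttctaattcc
Nid1: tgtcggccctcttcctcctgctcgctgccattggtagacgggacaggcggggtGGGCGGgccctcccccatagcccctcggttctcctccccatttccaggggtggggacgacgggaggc
Hspg2: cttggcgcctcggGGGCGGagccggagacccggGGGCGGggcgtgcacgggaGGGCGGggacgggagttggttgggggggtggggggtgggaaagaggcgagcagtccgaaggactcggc
Lama5: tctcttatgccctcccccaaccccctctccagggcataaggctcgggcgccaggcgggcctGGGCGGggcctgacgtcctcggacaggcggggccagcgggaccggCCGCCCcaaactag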

How the data were processed

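Gene expression was measured on 2 one-colour Agilent arrays, 1 per group, on the same slide per the file headers. The intensity of each spot was extracted by the authors (Agilent Feature Extraction 9.5 in the submitters' processing notes), and per the file headers the processed intensity is background-subtracted and detrended within the array and not normalized between arrays. The authors' deposited table of the whole series holds intensity as well. Set against the scanner files, it was found to be 100 times the processed signal over the 75th percentile of all spots, with column medians of 9.00 (control) and 8.70 (cast); 54.9% of its values were exact whole numbers, each that quantity rounded (within 0.50), so it served as an alternative only.

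Spots flagged as non-uniform (2 and 9 gene spots) were left out, spots of a probe were averaged as log2, and each array's 75th percentile over 39429 gene probes was subtracted (R 4.3.3, limma 3.58.1 for the alternatives, pandas 2.3.3). A gene was measured where a probe was well above background on more than 0.5 of its spots on both arrays, and took its brightest such probe. The spot-level SD came from 250 replicated probes in 4 parts by signal, with medians of 0.15, 0.098, 0.089 and 0.077. The log2 ratios of 5 genes lay within 1 such SD of 0, and of 12 within 2. Probes were named through the gene table of assembly GRCm38 where it held their accession, as it did for 53 of the 55 genes; mm9 positions are the headers' own, and whether a probe lies in an exon or an untranslated region was not looked up. Genes of 1 family can share signal.

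With 1 array per group no test was possible. Counts at 1.5-fold and 2-fold were set beside those of all genes. The script was tested on simulated data. The members and gene lists were chosen with earlier results of these data known. Every gene of the set but 1, which is not reported here, is named, with values on both arrays where at least 1.5-fold apart, where well above background on 1 array only, or where on a set list of muscle genes. Of each list of other genes, up to 4 with the largest log2 ratio (either sign) and all past 2-fold are named. Of marker lists, those past 2-fold are named. Col4a2, Dag1 and Agrn, and the markers Scx, Ly6g, Elane, Pdgfra, Dcn and Pi16, were added after their values were seen. So were the markers Csf1r, Adgre1, Myod1, Pax7, Chodl, Cldn5 and Pecam1. Markers of Schwann cells, smooth muscle and adipocytes had medians of -0.05, -0.10 and -0.17, and those of satellite cells 0.13.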

Additional observations from a re-analysis of the deposited data

How the results depend on the processing

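Under 13 alternatives, all 11 genes at least 1.5-fold apart kept their direction, and 3 (Itga7, Itgb1bp2 and Itgb1bp3) stayed past 1.5-fold in each alternative that gave a value. Of the other measured genes, 13 changed sign under at least 1 alternative. With spike-in scaling, 11 genes were at least 1.5-fold higher and 2 lower, 1 was at least 2-fold higher and 0 lower, 27 lay above 0 and the median was 0.095; for all genes 24.5% were then at least 1.5-fold higher and 2.59% lower. With no scaling the values were 9, 2, 1, 0, 27 and 0.084, in the same order. Normexp background correction left 5 genes at least 1.5-fold lower. Without the detection filter 2 were at least 1.5-fold higher. When genes below the median level of the array were left out, 5 lay above 0 with a median of -0.35; fewer genes enter that count by construction. The cause of the other shifts was not tested. Under the other alternatives every count stayed within 1.5 times the main one. The number of arrays limits the precision, and genes near background have the largest spot-level SD. No paired analysis was possible because each group has 1 array.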
